A study of Homo sapiens with 4 samples.

Results

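The sarcomere scaffold genes described here are TTN, NEB, OBSL1, MYOM1, MYOM2, MYOM3, LDB3, TCAP and MYOZ2, 9 of the 39323 genes with a value. They were selected on their transcript levels after SKP2 depletion in these same libraries, since TTN, MYOM1 and LDB3 were known to be higher and OBSL1 lower, so their changes with shSKP2.2 are given as a description. The cells were RD and JR1, established lines of fusion-negative rhabdomyosarcoma, a childhood tumor that carries features of the skeletal muscle lineage without a PAX-FOXO1 fusion. Cells of each line were infected with a lentiviral vector that carried a short hairpin RNA (shSKP2.2) directed at SKP2 or, as control, a scrambled hairpin (shSCR), and both conditions were grown in high-glucose DMEM with serum. The labels gave both lines a wild-type genotype and named no time between infection and harvest, although the authors describe p53 as mutated in both. Each line gave 1 library of poly-A RNA for each hairpin, 4 in all, so differences have no replicate behind them and p-values are not given. Only 1 hairpin against SKP2 was sequenced, so its effects on other transcripts cannot be told apart from those of SKP2 depletion.

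The sarcomere is the contractile unit of striated muscle, in which myosin thick filaments and actin thin filaments are held in register between Z-discs. Titin, encoded by TTN, reaches from the Z-disc to the M-line and acts as a molecular spring and ruler, while nebulin, encoded by NEB, runs along the thin filament of skeletal muscle. Myomesins, encoded by MYOM1, MYOM2 and MYOM3, cross-link the thick filaments at the M-line, and obscurin-like 1, encoded by OBSL1, binds titin and myomesin there. At the Z-disc, LDB3 is a PDZ and LIM domain protein that binds alpha-actinin, TCAP (telethonin) caps the end of titin, and MYOZ2 (calsarcin-1) links alpha-actinin to the phosphatase calcineurin. Most of these genes, OBSL1 aside, are switched on when myoblasts leave the cell cycle and build myofibrils. SKP2 is the substrate receptor of an SCF ubiquitin ligase that marks inhibitors of the cell cycle for degradation.

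The 300 bases around the start sites of TTN, MYOM1, LDB3, MYOZ2 and OBSL1, the members whose levels moved by at least 2-fold with shSKP2.2 in both lines, are shown to set the regulatory sequence of the genes that were higher beside that of the gene that was lower. They come from RefSeq (GRCh38.p14), run from 250 bases before to 50 bases after the start site and are written on the strand of the gene. Capitals mark matches on either strand to CAGCTG or CAGGTG, both forms of the E-box that MYOD family factors bind, to CATTCC, the core bound by TEAD factors, to the MEF2 motif, or to the CArG box of serum response factor. Of 35116 RefSeq promoters of this length, 17.9% held CAGCTG, 20.6% CAGGTG, 14.0% CATTCC, 2.99% the MEF2 motif and 1.29% the CArG box.
TTN: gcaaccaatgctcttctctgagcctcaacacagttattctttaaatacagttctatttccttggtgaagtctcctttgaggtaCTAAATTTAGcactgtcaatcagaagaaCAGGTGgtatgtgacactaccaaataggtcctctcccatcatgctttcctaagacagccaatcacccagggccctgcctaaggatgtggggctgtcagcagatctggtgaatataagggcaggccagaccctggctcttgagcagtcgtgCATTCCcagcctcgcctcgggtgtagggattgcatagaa
MYOM1: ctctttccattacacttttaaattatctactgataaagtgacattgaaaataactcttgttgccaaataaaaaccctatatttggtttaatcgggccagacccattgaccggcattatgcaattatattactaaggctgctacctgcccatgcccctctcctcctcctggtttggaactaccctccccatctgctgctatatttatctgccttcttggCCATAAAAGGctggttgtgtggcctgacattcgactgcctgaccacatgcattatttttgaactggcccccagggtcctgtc
LDB3: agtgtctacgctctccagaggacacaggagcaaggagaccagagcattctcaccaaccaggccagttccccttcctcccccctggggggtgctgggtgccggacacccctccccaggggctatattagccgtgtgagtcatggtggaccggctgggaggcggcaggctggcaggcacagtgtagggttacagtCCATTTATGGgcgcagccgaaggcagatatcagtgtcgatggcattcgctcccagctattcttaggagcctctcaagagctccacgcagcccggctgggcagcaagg
MYOZ2: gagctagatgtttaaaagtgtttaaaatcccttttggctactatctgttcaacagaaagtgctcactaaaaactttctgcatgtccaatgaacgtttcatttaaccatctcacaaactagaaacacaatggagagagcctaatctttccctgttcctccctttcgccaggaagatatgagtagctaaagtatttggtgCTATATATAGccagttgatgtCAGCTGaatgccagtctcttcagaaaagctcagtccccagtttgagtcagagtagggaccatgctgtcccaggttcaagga
OBSL1: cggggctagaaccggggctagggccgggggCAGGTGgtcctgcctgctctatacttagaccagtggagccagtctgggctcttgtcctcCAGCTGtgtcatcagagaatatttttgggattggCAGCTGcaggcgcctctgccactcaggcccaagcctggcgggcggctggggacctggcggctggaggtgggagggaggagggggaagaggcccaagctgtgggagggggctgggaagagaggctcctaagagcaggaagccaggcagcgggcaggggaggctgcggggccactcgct

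The TTN window, chr2:178807374-178807673 on the minus strand, held a MEF2 motif 167 bases and CAGGTG 139 bases before the start site, and CATTCC from 11 bases after it. In the MYOM1 window, chr18:3219919-3220218 on the minus strand, the single match was a CArG box 32 bases before the start site. In LDB3 it was also a CArG box, 57 bases before the start site, in chr10:86668261-86668560 on the plus strand. The MYOZ2 window, chr4:119135582-119135881 on the plus strand, held a MEF2 motif 52 bases and CAGCTG 31 bases before the start. The OBSL1 window, chr2:219571490-219571789 on the minus strand, held 3 E-boxes, CAGGTG at 220 bases and CAGCTG at 161 and 127 bases before the start. E-boxes therefore stood in windows of members that were higher and of the member that was lower, and a match says nothing of whether a factor is bound there. The content of G and C was 66.7% in the window of OBSL1, 61.7% in that of LDB3, 48.7% in TTN, 44.3% in MYOM1 and 41.7% in MYOZ2. The RefSeq start sites of LDB3, MYOM1 and OBSL1 lie 1723, 140 and 34 bases inside the gene bounds of the deposited tables, and the libraries do not show which start site was used.

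Transcript levels are in TPM, a relative measure of transcript number that is scaled to the length of each transcript, so levels of different genes in a library can be set side by side. TPM sum to 1e+06 in every library and keep no read counts, so depth is unknown and the precision of a single value cannot be given. Changes are log2 ratios of TPM + 1, shSKP2.2 over shSCR of the same line, and the added 1 shrinks the change of low genes. Of all genes, 12985 averaged 1 TPM or more across the 4 libraries and were compared, and 8 of the 9 scaffold genes were among them, TCAP being the exception at a mean of 0.97 TPM. SKP2 itself stood at 92.8 TPM with shSCR and 7.40 TPM with shSKP2.2 in RD cells, and at 46.5 and 2.72 TPM in JR1 cells. Short structural RNAs held 50.1% of all TPM with shSCR and 62.3% with shSKP2.2 in RD cells, and 57.1% and 64.9% in JR1 cells. Beside this, the median log2 change of the compared genes was -0.27 in RD and -0.21 in JR1. The 2-fold limit and directions are set against 0, and changes centered on these medians are given for some genes. Of 7 skeletal muscle lineage markers 6 reached 1 TPM, with MYOD1 between 87.0 and 131 TPM and MYF5 listed at 0 in every library, and their summed level was 412 TPM with shSCR and 572 TPM with shSKP2.2 in RD cells and 555 and 778 TPM in JR1 cells. CHRNA1 held the largest share of that sum, at 196 and 314 TPM in RD cells and 284 and 425 TPM in JR1 cells, while PAX7 went down, at 10.8 and 3.36 TPM and at 4.84 and 1.16 TPM, and DES stood at 39.3 and 43.4 TPM and at 51.3 and 35.97 TPM. The 4 fibroblast markers summed to 307 and 77.3 TPM in RD cells and to 390 and 68.3 TPM in JR1 cells, nearly all of it COL1A1, while DCN and PDGFRA stayed at or below 0.06 TPM and LUM reached 3.46 TPM in JR1. Endothelial markers summed to at most 0.45 TPM with KDR listed at 0, the leukocyte marker PTPRC reached at most 0.01 TPM beside CD68 at 2.28 to 2.87 TPM, and the epithelial markers EPCAM and CDH1 at most 0.16 and 0.03 TPM, although KRT18 stood between 80.8 and 202 TPM. Of the cardiac markers MYH6 reached at most 0.06 TPM while NKX2-5 stood between 13.2 and 18.5 TPM, and of the smooth muscle markers MYH11 reached at most 0.11 TPM, CNN1 6.29 TPM and SMTN 10.8 TPM. The part of these markers and of the structural RNAs in the results was not tested. Where values are paired below, that of shSCR comes first.

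With shSKP2.2, 8 of the 9 scaffold genes had a higher value in each line and OBSL1 a lower one in both, although TCAP in both lines and MYOM3 in RD stayed too low to read a change from. Of all compared genes, 24.6% had a higher value with shSKP2.2 in RD and 30.9% in JR1. TTN, MYOM1, LDB3 and MYOZ2 were at least 2-fold higher on the TPM + 1 scale in RD and in JR1. Of all compared genes 1.08% were at least 2-fold higher in RD and 1.78% in JR1, while 7.37% and 9.05% were at least 2-fold lower. The rule that chose the members used this contrast, so nothing is read from these counts. The median log2 change over all 9 members was 0.82 in RD and 0.83 in JR1. In bulk RNA, a higher level in every cell and a larger share of cells that express the gene cannot be told apart.

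**Figure D1:**
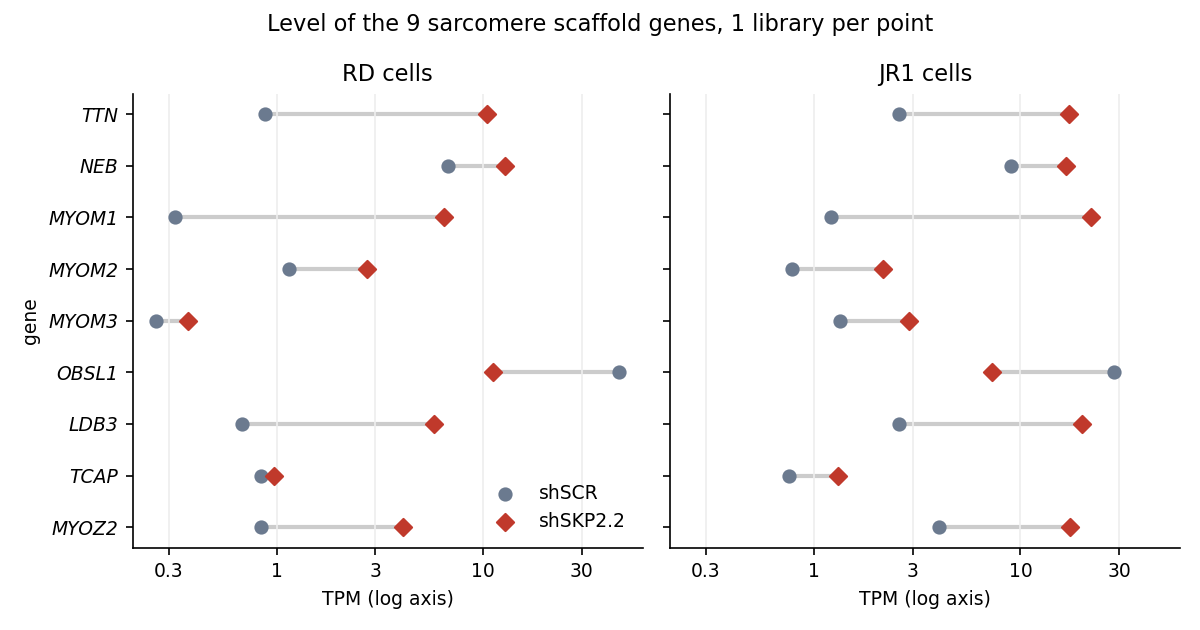
TPM of the 9 scaffold genes on a log axis in RD (left) and JR1 (right), with circles for the shSCR library and diamonds for the shSKP2.2 library, 1 library per point. OBSL1 is the only gene whose diamond lies to the left of its circle, and MYOM1 has the longest line in both panels.

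Titin transcripts were scarce in shSCR cells of both lines and had the second-largest rise among the scaffold genes in RD by plain TPM ratio. TTN stood at 0.88 TPM with shSCR and 10.4 TPM with shSKP2.2 in RD cells, and at 2.59 and 17.1 TPM in JR1 cells. Both shSKP2.2 libraries were above both shSCR libraries. The TPM ratio was 11.8 for RD and 6.61 for JR1, and the log2 change was 2.60 and 2.34. Only 25 compared genes had a larger rise in RD and 35 in JR1. In the list of compared genes ordered by level, TTN went from percentile 2.37 to 55.5 in RD and from 17.0 to 73.8 in JR1.

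TTN lies at chr2:178525989-178807423 on the minus strand (GRCh38). Its canonical transcript in GENCODE release 44 has 363 exons and 109224 bases, and the 16 annotated transcripts span 519 to 109224 bases, so its TPM depend on how reads were shared among isoforms of very different length. The antisense gene TTN-AS1 overlaps it. TTN-AS1 stood at 2.29 TPM with shSCR and 1.94 TPM with shSKP2.2 in RD cells, and at 1.57 and 1.69 TPM in JR1 cells, with log2 changes of -0.16 and 0.07. The library kit kept strand, but the strand setting of the counting is not given in the sources used here.

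Nebulin started from a higher level and moved less. NEB stood at 6.77 TPM with shSCR and 12.7 TPM with shSKP2.2 in RD cells, and at 9.01 and 16.6 TPM in JR1 cells. The TPM ratio was 1.88 for RD and 1.85 for JR1, and the log2 change was 0.82 in each, below the 2-fold limit. Centered on the median of all compared genes, it was 1.09 in RD and 1.03 in JR1, past that limit. NEB had 209 compared genes above it by change in RD and 360 in JR1. It lies at chr2:151485334-151734476 on the minus strand, with 182 exons and 26191 bases in its canonical transcript, and overlaps RIF1 on the other strand, which stood between 7.25 and 12.5 TPM. Within a library, where the TPM scale cancels, TTN over NEB was 0.130 with shSCR and 0.815 with shSKP2.2 in RD cells. In JR1 the same ratio was 0.287 in shSCR and 1.03 in shSKP2.2, so titin and nebulin transcripts were near parity in that library. TTN was chosen with its rise known, so the rise of this ratio follows in part from that choice.

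At the M-line, the myomesin genes differed widely in how far they moved. MYOM1, whose protein is the myomesin found in all striated muscle, stood at 0.32 TPM with shSCR and 6.43 TPM with shSKP2.2 in RD cells, and at 1.21 and 21.9 TPM in JR1 cells. Its TPM ratio of 20.1 in RD and 18.1 in JR1 was the largest among the scaffold genes in either line. The log2 change on the TPM + 1 scale was 2.49 in RD and 3.37 in JR1, where 18 compared genes had a larger rise. The difference of 0.88 between the lines on that scale rests on the added 1, since the shSCR level in RD was far below 1 TPM and the plain ratios were close. MYOM1 lies at chr18:3066807-3220108 on the minus strand, with 38 exons and 5707 bases in its canonical transcript.

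MYOM2, which encodes the M-protein known from fast fibers, stood at 1.15 TPM with shSCR and 2.73 TPM with shSKP2.2 in RD cells, and at 0.78 and 2.17 TPM in JR1 cells. The TPM ratio was 2.37 for RD and 2.78 for JR1, yet the log2 changes of 0.79 and 0.83 stayed under the limit because of the added 1. Centered on the median of all compared genes, they were 1.06 and 1.05, past that limit. MYOM2 was one of 2 members, with OBSL1, that were higher in RD than in JR1 in both conditions. For MYOM2 that difference was 0.27 in shSCR and 0.23 in shSKP2.2 on the log2 scale. This was near the medians of all compared genes, 0.23 and 0.17. MYOM3 stood at 0.26 TPM with shSCR and 0.37 TPM with shSKP2.2 in RD cells, and at 1.33 and 2.87 TPM in JR1 cells. Its log2 change was 0.12 in RD, where 2131 compared genes had a larger rise, and 0.73 in JR1. Both RD libraries were below both JR1 libraries, and in RD both values were too low to read a change from. MYOM2 lies at chr8:2045046-2145456 on the plus strand and MYOM3 at chr1:24056041-24112135 on the minus strand.

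The myomesin transcripts changed in make-up as well as in amount. Their summed level was 1.73 TPM with shSCR and 9.53 TPM with shSKP2.2 in RD cells, and 3.32 and 26.9 TPM in JR1 cells. MYOM1 made up 18.5% of that sum with shSCR and 67.5% with shSKP2.2 in RD cells. In JR1 it made up 36.4% in shSCR and 81.3% in shSKP2.2. By these values the leading myomesin in shSCR was MYOM2 in RD, with 66.5%, and MYOM3 in JR1, with 40.1%. MYOM1 led in both shSKP2.2 libraries. The shSCR shares rest on single values between 0.26 and 1.33 TPM at unknown depth. In JR1 shSCR, MYOM3 at 1.33 TPM and MYOM1 at 1.21 TPM cannot be told apart. The share of MYOM2 went to 28.6% in RD and from 23.5% to 8.06% in JR1. The share of MYOM3 went from 15.0% to 3.88% in RD and to 10.7% in JR1. These shares are ratios within a library and do not depend on the TPM scale. MYOM1 was among the genes the choice of members rested on, so its larger share is part of that choice. The values of MYOM2 and MYOM3 were not lower with shSKP2.2 in either line.

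**Figure D2:**
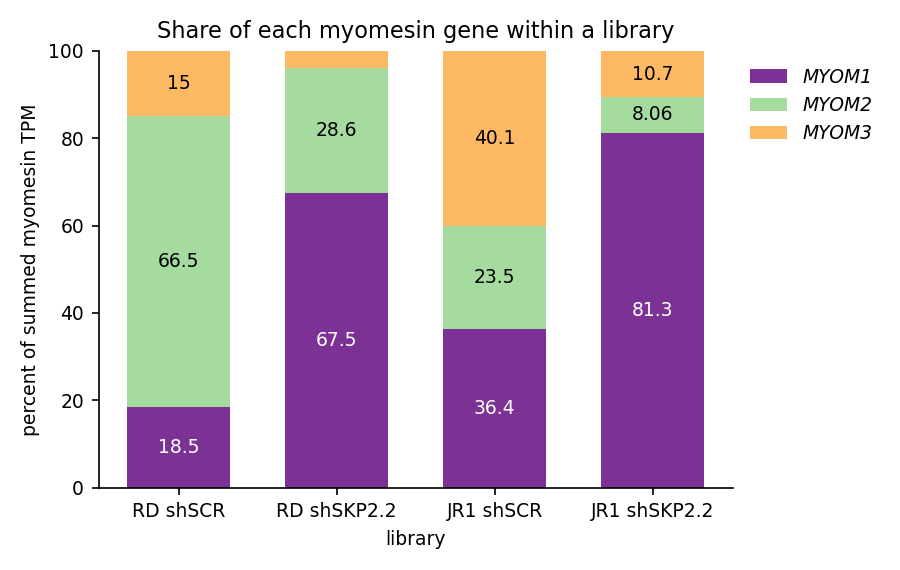
Share of MYOM1, MYOM2 and MYOM3 in their summed TPM, in percent, for each of the 4 libraries, 1 stacked bar per library. MYOM1 goes from 18.5% to 67.5% in RD and from 36.4% to 81.3% in JR1. The choice of members rested in part on its rise.

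OBSL1 was the member that went down. It stood at 45.6 TPM with shSCR and 11.2 TPM with shSKP2.2 in RD cells, and at 28.4 and 7.31 TPM in JR1 cells. Both shSKP2.2 libraries were below both shSCR libraries, by 4.08-fold in RD and 3.88-fold in JR1. The log2 change was -1.94 for RD and -1.82 for JR1, with 96 and 182 compared genes further down. In shSCR cells OBSL1 was the most abundant scaffold transcript of both lines, at percentile 86.4 of the compared genes in RD and 80.9 in JR1. After shSKP2.2 it was at percentile 57.9 and 49.0. It made up 79.5% of the summed TPM of the 9 genes with shSCR and 20.4% with shSKP2.2 in RD cells, and 56.0% and 6.85% in JR1. Without it, the other 8 genes summed to 11.7 TPM with shSCR and 43.5 TPM with shSKP2.2 in RD cells, and to 22.3 and 99.4 TPM in JR1 cells.

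OBSL1 lies at chr2:219549408-219571573 on the minus strand, with 21 exons and 6105 bases in its canonical transcript, and overlaps TMEM198 on the other strand. TMEM198 moved the other way, with 7.08 and 11.4 TPM in RD cells and 7.68 and 9.09 TPM in JR1 cells. Outside muscle, OBSL1 forms the 3M complex with the cullin CUL7 and with CCDC8, and CUL7 assembles a ubiquitin ligase with the F-box protein FBXW8. None of the other 3 genes was past 2-fold in either line. CUL7 stood at 30.7 and 20 TPM in RD and 16.4 and 12.6 TPM in JR1, a log2 change of -0.60 and -0.36. CCDC8 stood at 27.2 and 16.1 TPM in RD and 15.7 and 14.0 TPM in JR1, a log2 change of -0.72 and -0.16. FBXW8 stood at 5.67 and 3.76 TPM in RD and 4.76 and 5.57 TPM in JR1, a log2 change of -0.49 and 0.19. All 3 changed by less than OBSL1 in each line, but OBSL1 was chosen with its fall known, so nothing is read from that. Centered on the median of all compared genes, CUL7 was at -0.33 in RD and -0.14 in JR1. CCDC8 was at -0.45 and 0.06, and FBXW8 at -0.22 and 0.40.

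At the Z-disc, LDB3 and MYOZ2 were higher with shSKP2.2 and TCAP stayed near 1 TPM. LDB3 stood at 0.68 TPM with shSCR and 5.80 TPM with shSKP2.2 in RD cells, and at 2.58 and 19.97 TPM in JR1 cells. The TPM ratio was 8.53 for RD and 7.74 for JR1, and the log2 change was 2.02 and 2.55. LDB3 lies at chr10:86666788-86736072 on the plus strand, with 14 exons and 5363 bases in its canonical transcript, and overlaps no other gene of the tables. MYOZ2 stood at 0.84 TPM with shSCR and 4.11 TPM with shSKP2.2 in RD cells, and at 4.03 and 17.4 TPM in JR1 cells. The RD library with shSKP2.2 thus stood near the JR1 library with shSCR. The TPM ratio was 4.89 for RD and 4.32 for JR1, with log2 changes of 1.47 and 1.87. MYOZ2 lies at chr4:119135832-119187789 on the plus strand, with 6 exons and 2549 bases.

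TCAP stood at 0.84 TPM with shSCR and 0.97 TPM with shSKP2.2 in RD cells, and at 0.76 and 1.31 TPM in JR1 cells. The log2 changes of 0.10 and 0.39 are from levels too low to read a change from, and TCAP did not reach the mean of 1 TPM. The gene is short, at chr17:39665349-39666554 on the plus strand with 2 exons and 960 bases. TCAP over TTN, the protein it caps, was 0.955 with shSCR and 0.0934 with shSKP2.2 in RD cells, and 0.293 and 0.0765 in JR1 cells. LDB3 over TTN moved far less, from 0.773 to 0.559 in RD and from 0.996 to 1.17 in JR1. MYOZ2 over TTN went from 0.955 to 0.396 in RD and from 1.56 to 1.02 in JR1. MYOM1 over TTN went from 0.364 to 0.619 in RD and from 0.467 to 1.28 in JR1. LDB3, like TTN, was among the genes the choice of members rested on, so its closeness to titin is part of that choice. TTN was chosen with its rise known, so the moves of the other ratios to it follow in part from that choice. In RD shSCR all of these ratios rest on values below 1 TPM.

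**Figure D3:**
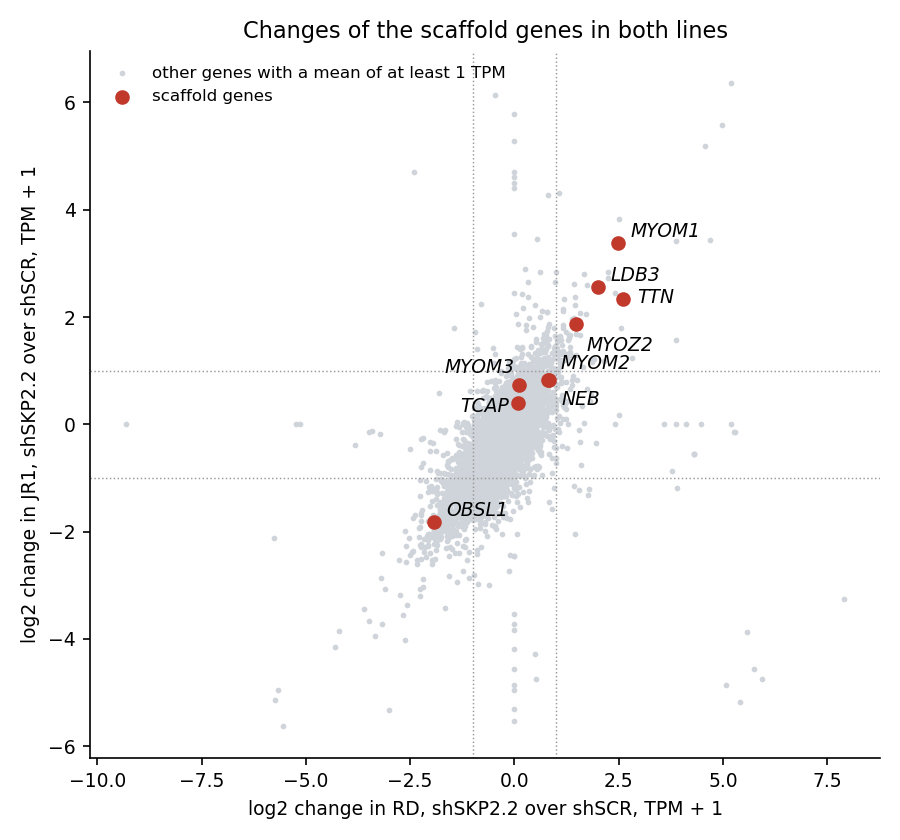
Log2 change with shSKP2.2 in RD (horizontal) and JR1 (vertical) on the TPM + 1 scale, with the 9 scaffold genes in red over the other genes of at least 1 TPM in gray and dotted lines at 2-fold. TTN, MYOM1, LDB3 and MYOZ2 lie past 2-fold in both lines at the upper right, OBSL1 at the lower left, and NEB, MYOM2, MYOM3 and TCAP inside the lines.

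The order of the 9 genes by level changed with shSKP2.2. With 1 library per group there is no spread, and neighbors in an order cannot be told apart. In both shSCR libraries OBSL1 came first and NEB second. In RD shSKP2.2 the order was NEB, OBSL1, TTN, MYOM1, LDB3, MYOZ2, MYOM2, TCAP and MYOM3. In JR1 shSKP2.2 it was MYOM1, LDB3, MYOZ2, TTN, NEB, OBSL1, MYOM3, MYOM2 and TCAP, with the first 5 between 16.6 and 21.9 TPM. MYOM1 had been eighth of 9 in RD shSCR and seventh in JR1 shSCR.

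RD and JR1 cells were then compared within each condition, a contrast that the choice of members did not use by itself. In shSCR cells none of the 8 members compared was at least 2-fold higher in RD, against 6.5% of all compared genes. LDB3 and MYOZ2 were at least 2-fold lower in RD, against 3.44% of all compared genes. With short structural RNAs removed, TTN, MYOM1 and MYOM3 joined them, 5 members against 5.72% of all compared genes on that scale. In shSKP2.2 cells no member was at least 2-fold higher in RD, against 5.39% of all compared genes. MYOM1, LDB3 and MYOZ2 were at least 2-fold lower in RD, against 2.7% of all compared genes. MYOM3 was past the limit too. It reached a mean of 1 TPM through its JR1 libraries alone, so it could only be counted as lower in RD. Nothing is read from it, here or among the 5 members above. The median difference of all 9 members was -0.74 in shSCR and -0.67 in shSKP2.2 on the log2 scale, while that of all compared genes was 0.23 and 0.17. The comparisons of lines and of conditions share libraries and are not independent.

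MYOZ2 showed the widest gap between the lines on the TPM + 1 scale, -1.45 in shSCR and -1.85 in shSKP2.2, with plain TPM 4.80-fold and 4.24-fold higher in JR1. MYOM3 was 5.12-fold higher in JR1 in shSCR and 7.76-fold in shSKP2.2 in plain TPM. For LDB3 the same ratios were 3.79 and 3.44, and for MYOM1 3.78 and 3.40. These 4 genes were thus lower in RD with shSCR and with shSKP2.2. TTN was 2.94-fold higher in JR1 in shSCR and 1.65-fold in shSKP2.2. NEB differed little between the lines, by 1.33-fold and 1.31-fold. OBSL1 was higher in RD by 1.61-fold in shSCR and 1.53-fold in shSKP2.2, and MYOM2 by 1.47-fold and 1.26-fold. On the TPM + 1 scale the MYOM2 difference was near the median of all compared genes.

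No member was past a 2-fold difference between the lines in its change with shSKP2.2. The change in RD minus that in JR1 was at least 1 in size for none of the members and for 2.76% of the compared genes. It was 0.26 for TTN, -0.12 for OBSL1 and below 0.01 in size for NEB. For MYOM1 it was -0.88, for MYOM3 -0.61, for LDB3 -0.53 and for MYOZ2 -0.40. For members that were higher with shSKP2.2, a negative value means a larger change in JR1 on the TPM + 1 scale. For OBSL1 it means a larger fall in RD. The plain TPM ratio was larger in RD for MYOM1 (20.1 against 18.1), LDB3 (8.53 against 7.74) and MYOZ2 (4.89 against 4.32). For MYOM3 it was larger in JR1, 2.16 against 1.42 in RD. These differences could not be tested with 1 library per group.

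Genes with the closest pattern to TTN, MYOM1, LDB3 and OBSL1 were sought among 12845 genes by the distance between log2 levels over the 4 libraries, each centered on its own mean. For LDB3 these were SMYD1 at 0.26, C1orf105 at 0.27 and HSPB3 at 0.30. SMYD1 is a muscle methyltransferase that acts on myosin and binds its chaperones, and HSPB3 is a small heat shock protein of muscle. For MYOM1 the same genes came first, SMYD1 and C1orf105 at 0.49 each and HSPB3 at 0.66. For TTN they were HSPB3 at 0.49, C1orf105 at 0.53 and HDAC9, a class IIa histone deacetylase, at 0.65. HSPB3 stood at 1.07 and 10.0 TPM in RD and 3.93 and 26.0 TPM in JR1, shSCR before shSKP2.2. The pattern nearest to OBSL1 was HINT2, a mitochondrial enzyme, at 0.04, with 19.4 and 4.28 TPM in RD and 11.8 and 2.50 TPM in JR1. It was followed by ACAT2, an acetyl-CoA acetyltransferase, at 0.14 and HAAO, an enzyme of the kynurenine pathway, at 0.15. Each likeness is over 4 libraries only.

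Other genes of the sarcomere scaffold and of the OBSL1 partners were summarized in 4 lists with 57 genes, of which 46 were compared. In RD 7 of them were at least 2-fold higher and 5 lower, beside 1.08% and 7.37% of all compared genes, and in JR1 15 were higher and 5 lower, beside 1.78% and 9.05%. With changes centered on the median, 12 were higher and 1 lower in RD, beside 2.09% and 3.53% of all compared genes. In JR1 these were 17 and 5, beside 2.99% and 5.47%. With short structural RNAs removed, RD had 15 and 1, beside 3.75% and 3.41%. JR1 had 18 and 4, beside 4.69% and 6.71%. With protein-coding genes only, RD had 18 and 1, beside 3.74% and 3.58%, and JR1 18 and 5, beside 4.69% and 7.57%. Some genes counted as higher, such as XIRP2, LMOD3 and CAPN3, were at or below 1 TPM in both shSCR libraries. They reached the mean of 1 TPM through their shSKP2.2 libraries, so they could only be counted as higher. Nothing is read from these counts. The median change of the 46 genes was 0.29 for RD and 0.23 for JR1, above the medians of all compared genes given earlier. The genes named below that are not the highest or lowest of their list were chosen after their values were seen.

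Of 20 other Z-disc genes, 18 were compared, with a median change of 0.18 for RD and 0.22 for JR1. In RD, SYNPO2L and MYPN were at least 2-fold higher. SYNPO2L, an actin-associated protein of the Z-disc, stood at 4.48 and 19.0 TPM in RD and 15.4 and 35.9 TPM in JR1, a log2 change of 1.86 and 1.16. MYPN, which encodes myopalladin and tethers nebulin to alpha-actinin, stood at 5.90 and 16.4 TPM in RD and 12.2 and 34.6 TPM in JR1, with changes of 1.34 and 1.44. In JR1 ACTN2, NEXN and SYNPO2 were past 2-fold as well, and ACTN2, the muscle alpha-actinin to which LDB3 and MYOZ2 bind, stood at 4.37 and 5.04 TPM in RD and 8.89 and 20.8 TPM in JR1. PDLIM7, a PDZ and LIM domain protein that binds tropomyosin, and PALLD, the more widely expressed relative of myopalladin, were lower in RD. PDLIM7 stood at 51.9 and 21.2 TPM in RD and 45.0 and 25.1 TPM in JR1, with changes of -1.25 and -0.82. The lowest change in JR1 was that of CRYAB, the chaperone alpha-B crystallin, at 3.55 and 0.45 TPM, while in RD it stood at 0.45 and 0.08 TPM.

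Of 18 thin filament genes and nebulin relatives, 11 were compared, with a median change of 0.58 for RD and below 0.01 for JR1. KLHL41, a kelch protein that stabilizes nebulin, was the most abundant of those that were higher, at 81.1 and 243 TPM in RD and 106 and 448 TPM in JR1. Its log2 change was 1.57 for RD and 2.07 for JR1. XIRP2 was the other gene past 2-fold in RD, and in JR1 LMOD3, TMOD1, KLHL40 and XIRP2 joined KLHL41. TMOD3, CAPZA1 and CAPZB, which cap actin filaments in many cell types, were at least 2-fold lower in both lines in the deposited TPM. When centered on the median, CAPZA1 and CAPZB in RD were at -0.80 and -0.82 and TMOD3 at -1.04, so TMOD3 alone stayed past 2-fold there. TMOD3 stood at 6.45 and 2.0 TPM in RD and 5.48 and 1.48 TPM in JR1. TMOD1, the tropomodulin of striated muscle and red cells, stood at 1.62 and 3.15 TPM in RD and 2.13 and 6.04 TPM in JR1, so TMOD1 and TMOD3 moved in opposite directions.

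Of 16 M-band genes and titin partners, 14 were compared, with a median change of 0.49 for RD and 0.44 for JR1. SMYD1 was the highest in both lines, at 1.55 and 11.0 TPM in RD and 4.55 and 38.5 TPM in JR1, a log2 change of 2.23 and 2.83. TRIM63 and TRIM54, RING finger proteins that bind titin at the M-line, were also past 2-fold in both lines, and CKM and CAPN3 in JR1. ANKRD1, a stress-responsive protein that binds titin, moved in opposite directions, with 5.69 and 11.5 TPM in RD cells and 27.3 and 8.47 TPM in JR1 cells, with log2 changes of 0.90 and -1.58. NBR1, an autophagy receptor that binds the titin kinase region, had the lowest change in RD, -0.98, from 20.5 to 9.91 TPM.

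The direction of each member's change held when the TPM were scaled in other ways, but the number past 2-fold did not. When the short structural RNAs were removed and the rest rescaled to the same total, the medians of all compared genes were 0.10 in RD and 0.03 in JR1. TTN then had a log2 change of 3.37 for RD and 2.82 for JR1, and MYOM1 of 3.46 and 4.05. OBSL1 changed by -1.59 and -1.62. NEB, with 1.25 and 1.14, and MYOM2, with 1.32 and 1.35, passed 2-fold in both lines, and MYOM3, with 1.16, passed it in JR1. On that scale 6 members were at least 2-fold higher in RD, beside 3.75% of all compared genes, and 7 in JR1, beside 4.69%. Of all genes past 2-fold, 12.8% were higher in RD and 16.4% in JR1 in the deposited TPM, and 52.4% and 41.1% after the removal.

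**Figure D4:**
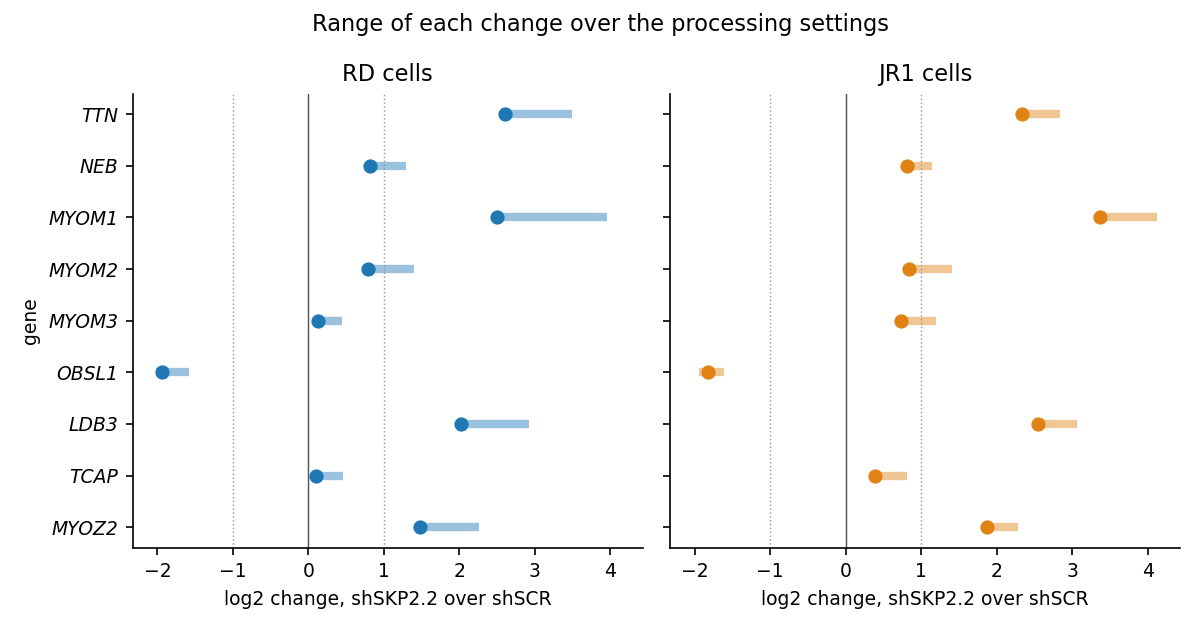
Log2 change of each scaffold gene with shSKP2.2 in RD (left) and JR1 (right), where the point is the change in the deposited TPM + 1 and the bar spans its values over all settings in which the gene was compared. TTN spans 2.60 to 3.49 in RD and 2.34 to 2.84 in JR1, OBSL1 -2.02 to -1.58 and -1.94 to -1.61, and no bar crosses 0.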

How the data were processed

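The authors extracted total RNA with a column kit, prepared poly-A selected directional libraries, and per the labels used STAR 2.7.9a and RSEM 1.3.2 on GRCh38 to align reads and estimate expression. The authors deposited 1 TPM value per gene and library, with 2 decimals, and these were used as deposited. Depth is unknown, so no counting interval could be given. The annotation release and the strand setting of the counting are not given in the sources used here.

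The 4 libraries were grouped by line and hairpin, as their titles give them. Changes were log2 of TPM + 1 ratios among genes averaging 1 TPM or more, and a gene was past the limit at 2-fold. By rule the named genes were the 9 members, SKP2, the highest and lowest of each list, the 3M genes, and the 3 nearest patterns to TTN, MYOM1, LDB3 and OBSL1. Markers, overlapping genes and other list members were named after their values were seen. Members, lists, markers and motifs were chosen with earlier results of these data known. The alternatives were a pseudocount of 0.1 TPM, centering on the median change, removal of short structural RNAs, no minimum level, a minimum mean of 5 TPM and a limit of 1.5-fold. Protein-coding genes alone were added after the data were seen. Python 3.11.15, numpy 2.4.6 and pandas 2.3.3 were used, and the calls and motif search were tested on simulated data.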

Additional observations from a re-analysis of the deposited data

Results flagged for a closer look

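Among the scaffold genes, TTN-AS1 and the other sarcomere and 3M genes compared, the values named below went in opposite directions in the compared groups. The share of all compared genes that did so is not given here, so nothing is read from their number. Direction is read here against 0 in the deposited TPM. None of these differences was tested, since each group has 1 library. ANKRD1, the stress-responsive titin partner, was higher with shSKP2.2 in RD and lower in JR1, and its log2 change in RD minus that in JR1 was 2.48. CSRP3, a muscle LIM protein of the Z-disc, had a difference of 1.80 in the same direction, from 0.41 to 1.62 TPM in RD and 11.1 to 5.45 TPM in JR1. XIRP1, DES and LASP1 were also higher in RD and lower in JR1 with shSKP2.2, with differences of 1.02, 0.64 and 0.08. FBXW8, the F-box partner of CUL7, was lower in RD and higher in JR1, with a difference of -0.68, and so were SPEG, PDLIM5, TTN-AS1 and CAPZA2, with differences of -0.62, -0.58, -0.23 and -0.12. TCAP was slightly higher in RD than in JR1 in shSCR and lower in shSKP2.2, with a difference of -0.29 between the conditions, from levels near 1 TPM. Some of these directions depend on the TPM scale. Centered on the median, LASP1 (0.32 in RD and 0.19 in JR1), CAPZA2 (0.15 and 0.22) and TTN-AS1 (0.11 and 0.28) were higher in both lines. With short structural RNAs removed, SPEG (0.04 and 0.55) and PDLIM5 (0.07 and 0.55) were too. TCAP was then lower in RD than in JR1 in both conditions, at -0.05 and -0.41.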

How the results depend on the processing

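The change of each scaffold gene with shSKP2.2 kept its direction in every setting in which it was compared. The number of members past the limit in JR1 went from 5 to 8 with short structural RNAs removed, with protein-coding genes only and with a limit of 1.5-fold. Of all compared genes, 4.69% were higher and 6.71% lower with short structural RNAs removed, and 4.69% and 7.57% with protein-coding genes only. With the limit of 1.5-fold, 689 of the 12985 genes were higher and 3040 lower. For RD against JR1 in shSCR the number of members went from 2 to 4 when centered, beside 3.81% of all genes higher and 5.06% lower. It went to 5 with short structural RNAs removed, beside 5.08% and 5.72%, and to 5 with protein-coding genes only, beside 4.66% and 6.78%. It went to 5 with a pseudocount of 0.1 TPM and to 6 with a limit of 1.5-fold. The shares of all genes for those last settings are not given here. The other sarcomere genes past the limit in RD went from 12 to 19 with a pseudocount of 0.1 TPM. Of the 12985 compared genes, 279 were then higher and 1409 lower. They went to 24 with a limit of 1.5-fold, where 415 of the 12985 genes were higher and 3010 lower. With protein-coding genes only they went to 19, beside 3.74% of all genes higher and 3.58% lower. In JR1 they went from 20 to 11 with a minimum mean of 5 TPM, which compares fewer genes. Of those 8955 genes, 143 were higher and 892 lower.

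The difference between the lines in the change with shSKP2.2 turned to 0.0281 for OBSL1 with short structural RNAs removed and to 0.0776 with protein-coding genes only. It turned to 0.0179 for MYOM2 when centered, and to 0.0144 for LDB3 and 0.0783 for MYOZ2 with a pseudocount of 0.1 TPM. The difference of TCAP between the lines in shSCR turned to -0.0465 with short structural RNAs removed and to -0.112 with protein-coding genes only. The cause was not tested. Of all genes past 2-fold, 37.3% in RD and 35.3% in JR1 were higher when centered, and 51.1% and 38.3% with protein-coding genes only. A minimum mean of 5 TPM left 6 members. No library could be left out, because each group has 1. Unknown depth limits most the values below 1 TPM. In RD shSCR these include MYOM1, LDB3, MYOZ2 and TTN, so their TPM ratios in RD rest on such values, as do those of TCAP and MYOM3.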
